A study of Mus musculus with 36 samples.

Results

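Dendritic cells lacking LGP2 were compared with wild-type (WT) dendritic cells 6 h after both had received the same RNA agonist of RIG-I, as end levels and with no subtraction of mock cells. The comparison used 6 of the 36 libraries, 3 per genotype, and 11853 of the 24127 genes in the table, whose normalized count averaged 10 or more over the 36 libraries. The KO cells were LGP2-/- (Dhx58-/-) bone-marrow dendritic cells, and the cells they were set against were WT cells of the strain labelled C57BL/6, given as C57BL/6J in the study's design. Both had been cultured with GM-CSF, selected on CD11c and given 20 ng of PAMP RNA by transfection, which is the poly-U/UC segment of the hepatitis C virus genome. Mock cells of both genotypes were collected in parallel and PAMP RNA cells also at 3 h, with 3 libraries in each group. The 12 groups of the study also cover 1 h. Each condition was plated in triplicate. The number of mice and any pooling are not given in the labels, so p-values reflect only how far these libraries vary, which may be technical.

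RIG-I, MDA5 and LGP2 (the products of Ddx58, Ifih1 and Dhx58) are related helicases that bind foreign RNA in the cytosol. RIG-I and MDA5 carry signalling domains and act through the adaptor MAVS and the kinase TBK1, which leads to type I interferon. Secreted interferon then induces antiviral genes, among them the 3 sensors themselves. LGP2 has no signalling domain and is known as a regulator of the other sensors. In dendritic cells the same signals raise cytokines, chemokines and antigen presentation.

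Values below are the authors' normalized read counts, and differences are KO minus WT on the scale of log2(normalized count + 1), which understates changes of weakly expressed genes. They come with their standard error (SE) from limma and a Benjamini-Hochberg adjusted p over the 11853 genes, and genes with an adjusted p below 0.05 are termed called. Libraries held 7192818 to 8676547 reads in the PAMP RNA groups at 6 h, and 4740909 to 14255730 over the study. The sum of the normalized counts was higher in all 3 KO than in all 3 WT libraries with PAMP RNA, so scaling every library to one total lowers all differences by 0.11. One mock library stood apart from the other 2 of its group. In WT mock replicate 1 the mean log2 level of 30 hypoxia-inducible genes was 8.91, against 9.65 and 9.65 in WT mock replicates 2 and 3. Results that draw on mock cells are therefore given with and without it where that matters.

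The deleted gene was measured first. Dhx58 (chromosome 11, 100694884 to 100704271, minus strand, GRCm38) had normalized counts of 807, 985 and 1012 in KO cells, against 3066, 2941 and 3009.8 in WT cells with PAMP RNA at 6 h. All KO libraries lay below all WT libraries, yet reads over the gene were not lost. The difference was -1.69 (SE 0.14, adjusted p = 3.14e-13). In mock cells the order was the opposite, with 808, 725 and 634 in KO cells and 362, 287 and 273 in WT cells. The difference there was 1.23 (limma, adjusted p = 3.10e-09), opposite in sign to that with PAMP RNA. By itself this count does not show whether a mock library is KO or WT, since reads over the gene remained in KO cells. Erdr1, Mid1, Wdfy1 and Rnpep, described below, had the same direction in mock cells as with PAMP RNA. Whether the mock labels are right was not tested. KO and WT mock cells therefore stand below for the libraries labelled so. Whole-gene counts do not show which exons the reads cover, and the library kit is not stated to mark the strand, so reads of the antisense gene Dhx58os cannot be told apart. The neighbouring gene Kat2a, a histone acetyltransferase (chromosome 11, 100704746 to 100712465), had 108, 90.2 and 98.6 in KO cells, against 118, 128 and 132 in WT cells with PAMP RNA. Its difference was -0.35 with PAMP RNA (adjusted p = 0.0101; 0.0685 by DESeq2, and lost without KO replicate 2) and 0.89 in mock cells. Within 5 Mb of Dhx58, 16 of 145 genes were higher and 16 lower (22.1% called), and the median difference there was -0.01.

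**Figure D1:**
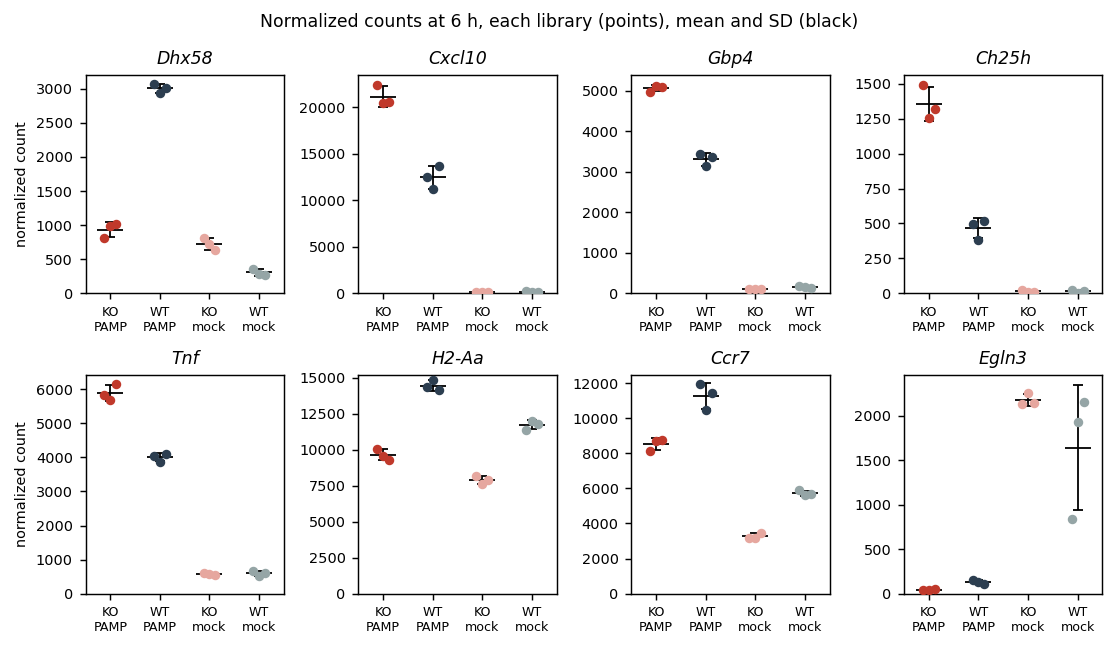
Normalized counts at 6 h (vertical axes, from 0) of 8 genes in each library, with KO and WT cells given PAMP RNA on the left and KO and WT mock cells on the right of each panel; points are libraries, and black lines are the mean and SD of 3. Dhx58 is lower in KO than in WT cells with PAMP RNA and higher in KO than in WT mock cells, and WT mock replicate 1 stands apart for Egln3.

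Of the 11853 genes, 1627 (13.7%) were higher and 1221 (10.3%) lower in KO than in WT cells with PAMP RNA, 24.0% in all. Most of these differences were small. The median size was 1.23-fold among the higher and 1.30-fold among the lower genes, and 37 higher and 75 lower genes differed by at least 2-fold. Groups did not overlap for 3935 genes (33.2%). Counting models on the recovered reads called 1655 higher and 885 lower genes with edgeR and 1504 and 799 with DESeq2. The share of higher among called genes depended on scaling: it was 57.1% as deposited, 41.6% after quantile normalization and 23.3% after scaling to one total, when 749 were higher and 2463 lower.

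Part of the contrast was present without agonist. In mock cells 593 genes (5.00%) were higher and 716 (6.04%) lower in KO, 11.0% in all. The mock comparison uses other libraries. It shared 233 higher genes with the PAMP RNA comparison, which is 14.3% of the PAMP RNA list and 39.3% of the mock list. It shared 301 lower genes, 24.7% and 42.0% of the lists. Opposite directions were also found, with 87 genes higher with PAMP RNA and lower in mock cells and 28 the other way. When the genotype difference with PAMP RNA was tested against that in mock cells, 791 genes (6.67%) had a more positive and 452 (3.81%) a more negative difference with PAMP RNA, 10.5% in all. Without WT mock replicate 1 these were 614 and 306.

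**Figure D2:**
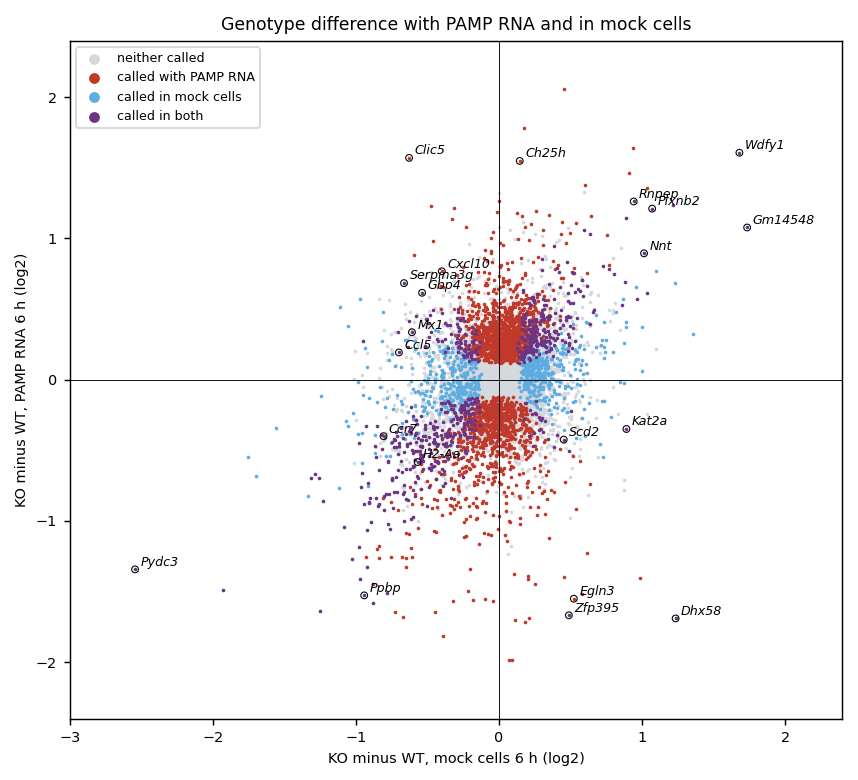
KO minus WT difference (log2) of each tested gene in mock cells (horizontal axis) and with PAMP RNA (vertical axis) at 6 h; colours show in which comparison a gene was called, circles mark named genes, and 3 genes lie outside the axes. Wdfy1, Rnpep and Nnt lie near the diagonal at upper right, while Dhx58 and Kat2a are above 0 in mock cells and below 0 with PAMP RNA.

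The antiviral cytokines themselves were higher in KO cells by fitted value, and how many were called depended on the model. Of 11 tested type I and III interferon genes, all 11 had a fitted difference above 0 (median 1.02, against 0.02 over all genes), and 4 were called by limma. Their mock counts are near 0, and edgeR and DESeq2 called all 11, while limma lost all calls after either rescaling, with a pseudocount of 0.5 or with a filter at a mean of 50. Leaving out any 1 of the 6 libraries left 0 or 1 called by limma. Ifna11 had 277, 303 and 264 in KO cells, against 111, 86.6 and 128 in WT cells. KO libraries were all higher, by 1.38 (SE 0.52, adjusted p = 0.046). The other called members were Ifna9 (1.26), Ifna6 (1.22) and Ifna5 (0.80). Ifnb1, the interferon produced early, had 1788, 1681 and 1878 in KO cells, against 1387, 1211 and 1262 in WT cells. Its groups did not overlap, yet limma did not call the difference of 0.47 (adjusted p = 0.342), while edgeR did (adjusted p = 3.18e-06). For Ifna4 and Ifna2 the differences were 0.66 (limma, adjusted p = 0.0618) and 0.67 (adjusted p = 0.0549). The Ifna genes are near-identical copies that may share reads, so the single members are uncertain.

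Sensors and adaptors of the RNA pathway were partly higher in KO cells. Of 40 tested genes of RNA sensing, 18 were higher and 1 (Dhx58) lower, with a median of 0.15. The higher count was 7 after quantile normalization and 10 after scaling to one total. Tlr3, the endosomal receptor of double-stranded RNA, had 2298, 2296 and 2103 in KO cells, against 1363, 1327 and 1515 in WT cells. All KO libraries were above all WT libraries, by 0.67 (SE 0.13, adjusted p = 0.000104), and the mock difference was -0.10 (adjusted p = 0.718). MDA5 was higher too: Ifih1 had 8108, 7795 and 8318 in KO cells, against 5954, 5444 and 6233 in WT cells (0.46, adjusted p = 3.06e-05). Rnf135, the ubiquitin ligase Riplet that activates RIG-I, rose by 0.52, and the kinase Tbk1 by 0.41. Ddx58, the gene of RIG-I, was higher by 0.30 (adjusted p = 0.0143), a call lost after either rescaling. The adaptor Mavs had 255, 258 and 272 in KO cells, against 264, 306 and 258 in WT cells, overlapping groups with a difference of -0.07 (adjusted p = 0.525). Of 12 tested genes of cytosolic DNA sensing, 5 were higher and 0 lower.

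Among antiviral interferon-stimulated genes, 36 of 62 were higher in KO cells with PAMP RNA and 1 was lower, with a median of 0.27, and 59 of 62 were fitted above 0. Rescaling left 10 higher after quantile normalization and 19 with equal totals, and edgeR called 53. Cmpk2, a mitochondrial nucleotide kinase, had 39943, 34090.4 and 37049.7 in KO cells, against 21545, 17453 and 23285 in WT cells. The groups were well apart (0.84, SE 0.15, adjusted p = 3.77e-05). Rsad2, which encodes viperin, had 100994, 87861 and 93316 in KO cells, against 59468, 53849.6 and 64282 in WT cells (0.67, adjusted p = 0.000212). Irf7, the factor that amplifies interferon production, was higher by 0.59, the RNA-synthesizing sensor Oas2 by 0.55, the deconjugase Usp18 by 0.43 and the dynamin-like Mx1 by 0.34. For Irf7, Usp18 and Mx1 the call was lost after quantile normalization, and for Oas2 after either rescaling and without KO replicate 2 or 3 or WT replicate 1 or 3. The classical genes Isg15 (0.40, adjusted p = 0.0905), Ifit1 (0.41, adjusted p = 0.0509), Ifit3 (0.21, adjusted p = 0.358) and Oasl1 (0.40, adjusted p = 0.065) were not called by limma, though edgeR called all 4. Among them DESeq2 called only Oasl1 (adjusted p = 0.0184). Ifit2 was called (0.42, adjusted p = 0.0121), but not after either rescaling or without KO replicate 1 or WT replicate 2. Ifitm1, a membrane restriction factor, was the gene that fell (-0.58). Members of the Ifit and Oas families may share reads.

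Mock cells showed the opposite side of this list. Of the 62 genes, 0 were higher and 19 lower in KO mock cells (median -0.22), while without WT mock replicate 1 there were 4 lower (median -0.07). In that library the mean log2 level of the 62 genes was 8.76, against 8.30 and 8.37 in WT mock replicates 2 and 3 and 8.14, 8.27 and 8.31 in KO mock cells. Relative to mock, 42 genes had a more positive difference with PAMP RNA, and 26 without that library. Mx1 had a mean of 1437 in KO mock cells, against 2219.6 in WT mock cells, and its difference with PAMP RNA exceeded that in mock cells by 0.94 (adjusted p = 6.94e-08). For Usp18 that excess was 0.94, for Serpina3g, a serine protease inhibitor, 1.35 and for Klrk1, the NKG2D receptor gene, 1.23.

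Guanylate-binding proteins and immunity-related GTPases, which act against intracellular microbes, gave the highest share of called genes among the lists for interferon responses. Of 16 tested, 13 were higher in KO cells and 0 lower (median 0.45), and 9 were called higher after either rescaling. Gbp7 had 7421, 7281 and 7281 in KO cells, against 5034, 5128 and 5223 in WT cells. KO libraries varied little and were all higher, by 0.51 (SE 0.07, adjusted p = 1.80e-07). Gbp4 had 4975, 5131 and 5098 in KO cells, against 3439, 3133 and 3361 in WT cells (0.62, adjusted p = 2.37e-05). Gbp5 was higher by 0.50, Igtp by 0.47 and Gbp11, a weakly expressed member, by 1.23 (adjusted p = 0.0193; call lost without KO replicate 2 or WT replicate 2). In mock cells 0 of the 16 were higher and 6 lower, Gbp4 (-0.54) and Gbp5 (-0.46) among them. Relative to mock, 11 had a more positive difference with PAMP RNA, and 8 without WT mock replicate 1. Gbp genes are close paralogs and may share reads.

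The promoters of 3 of these genes are shown because the list moved together. They are the 250 bases before the RefSeq start, 5′ to 3′ on the gene's strand (GRCm38.p6), with the match to GAAA, any 2 bases and GAAA again, the repeat of interferon response elements, in capitals. The search covered both strands, and a match on the other strand appears as its complement. Gbp7 lies at chr3:142530086-142530335 (plus strand, match from -53 to -44 relative to the start), Gbp5 at chr3:142496684-142496933 (plus strand, match from -165 to -156) and Igtp at chr11:58199306-58199555 (plus strand, match from -34 to -25).
Gbp7: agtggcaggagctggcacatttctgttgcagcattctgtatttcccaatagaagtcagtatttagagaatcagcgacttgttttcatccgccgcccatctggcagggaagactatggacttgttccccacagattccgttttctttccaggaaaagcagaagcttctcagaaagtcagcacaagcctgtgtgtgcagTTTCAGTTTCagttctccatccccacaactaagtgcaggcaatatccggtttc
Gbp5: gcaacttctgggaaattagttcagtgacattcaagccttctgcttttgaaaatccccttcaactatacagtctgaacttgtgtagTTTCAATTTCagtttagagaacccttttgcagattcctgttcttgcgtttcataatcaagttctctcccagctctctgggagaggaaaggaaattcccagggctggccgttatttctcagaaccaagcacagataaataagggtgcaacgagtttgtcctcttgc
Igtp: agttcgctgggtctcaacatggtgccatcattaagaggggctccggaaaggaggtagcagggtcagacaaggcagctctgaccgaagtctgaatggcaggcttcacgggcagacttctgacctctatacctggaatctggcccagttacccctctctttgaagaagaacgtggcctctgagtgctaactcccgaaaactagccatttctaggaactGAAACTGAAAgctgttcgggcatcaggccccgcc
RefSeq entries were found for 7 of the 13 called genes of the list, and all 7 windows hold a match, against 978 of 32851 promoter windows of the same length (2.98%). A match describes these letters and is no sign of binding. Members of the list that were not called were not counted, so the share does not bear on KO against WT.

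Chemokines split into genes that were higher and genes that were lower in KO cells. Of 22 tested, 6 were higher and 9 lower. Cxcl10, a ligand of CXCR3 on T cells, had 22427, 20500.3 and 20607 in KO cells, against 12534, 11187 and 13698 in WT cells. KO libraries were all higher, by 0.77 (SE 0.14, adjusted p = 3.58e-05). Cxcl9, a ligand of the same receptor, was higher by 1.16, and the inflammatory chemokine genes Ccl4 and Ccl3 by 0.48 and 0.45. The platelet-type chemokine Ppbp showed the largest fall of the list, with 431, 354 and 368 in KO cells, against 1098, 1179 and 1045 in WT cells (-1.53, SE 0.08, adjusted p = 5.33e-20). Its neighbour in the same gene family, Pf4, fell by 0.65, the eosinophil attractant Ccl24 by 0.97, and the neutrophil attractants Cxcl3 and Cxcl1 by 1.02 and 0.84. Cxcl1 was near the filter, with 7.98, 15.7 and 17.8 in KO cells, against 30.7, 20.2 and 23.3 in WT cells, and edgeR did not call it (adjusted p = 0.0569). In mock cells 0 of the 22 were higher and 11 lower, and Ppbp (-0.94), Cxcl3 (-0.77) and Ccl24 (-0.60) were among those lower there. Ccl5 was lower in KO mock cells (-0.70) and slightly higher with PAMP RNA (0.19, adjusted p = 0.00621), a call lost after either rescaling and without WT PAMP RNA replicate 2.

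Of 21 tested inflammatory cytokines, 9 were higher and 0 lower, and the higher count was 6 after quantile normalization and 5 with equal totals. Tnf had 5831, 5696 and 6141 in KO cells, against 4039, 3864 and 4099 in WT cells. The groups were apart (0.56, SE 0.08, adjusted p = 2.96e-07), while mock cells differed by -0.04 (adjusted p = 0.835). Il27, a subunit of interleukin-27, had 434, 419 and 443 in KO cells, against 233, 196 and 233 in WT cells (0.97, adjusted p = 0.0304). Its groups did not overlap, but the call was lost with equal totals and on leaving out any 1 of the 6 libraries. Lymphotoxin alpha (Lta) was higher by 1.36 and Inhba, the activin A subunit, by 0.63. Il12b (-0.02, adjusted p = 0.947) and Il1b (0.08, adjusted p = 0.761) overlapped between genotypes. For Il6 the difference of 0.48 was not called by limma over the 36 libraries (adjusted p = 0.249). It was called by edgeR (adjusted p = 0.00193) and by limma on the 6 libraries alone (adjusted p = 0.0024). Il10 did not pass the filter on low values.

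Enzymes that immune cells switch on were among the larger rises. Of 19 tested enzymes of immune metabolism, 11 were higher and 1 lower (5 higher after quantile normalization). Ch25h, which makes the antiviral sterol 25-hydroxycholesterol, had 1491, 1253 and 1316 in KO cells, against 495, 383 and 515 in WT cells. All KO libraries exceeded the highest WT library by a wide margin (1.55, SE 0.27, adjusted p = 2.56e-05), and the mock means were 14.6 in KO and 14.7 in WT cells. Irg1, which makes itaconate, had 55984, 57264 and 55329.8 in KO cells, against 38940.2, 38533 and 41642 in WT cells (0.50, adjusted p = 7.03e-08). The nitric oxide synthase gene Nos2 was higher by 0.98 (adjusted p = 0.0135; 0.113 without WT PAMP RNA replicate 3, and lost also without KO replicate 1) and the prostaglandin enzyme gene Ptgs2 by 0.88 (adjusted p = 0.0295). The Ptgs2 call was lost after either rescaling and on leaving out any KO replicate or WT replicate 2 or 3. Brakes on signalling rose with them, with 10 of 26 higher and 3 lower. Socs1 had 3990.3, 3046 and 3527 in KO cells, against 2373, 1461 and 2553 in WT cells (0.76, adjusted p = 4.31e-05), and Socs3 was higher by 0.54.

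Antigen presentation went in different directions for the MHC classes. Of 25 tested class I genes, 15 were higher and 2 lower in KO cells (6 and 3 after quantile normalization, 7 and 2 with equal totals). Tap1, a peptide transporter subunit, rose by 0.34, and the class I gene H2-T24 by 0.45. Nlrc5, the class I transactivator, was higher by 0.37, a call lost after either rescaling. Of 14 tested class II genes, 2 were higher and 8 lower (0 and 9 after quantile normalization, 0 and 10 with equal totals). H2-Aa, a class II alpha chain, had 10059.6, 9526 and 9312 in KO cells, against 14359, 14827 and 14104 in WT cells. All KO libraries were lower, by -0.58 on the log2 scale (SE 0.05, adjusted p = 3.53e-12), close to the mock difference of -0.57. H2-Ab1 (-0.44), H2-Eb1 (-0.47) and the invariant chain gene Cd74 (-0.34) were lower too, and 7 of the 14 were lower in mock cells. Relative to mock, 16 class I and 1 class II genes had a more positive difference with PAMP RNA, and 12 and 0 without WT mock replicate 1. Class I genes are near-identical and may share reads.

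Genes of dendritic cell maturation were lower at the end point, with 5 of 28 higher and 12 lower (median -0.17). Ccl22, which attracts regulatory T cells, had 24680.1, 26229.5 and 24967 in KO cells, against 37478, 32352 and 33894 in WT cells. KO libraries were all lower (-0.45, SE 0.05, adjusted p = 7.47e-09). The lymph node homing receptor Ccr7 had 8131, 8724 and 8755 in KO cells, against 11932, 10467 and 11433 in WT cells (-0.40, adjusted p = 2.22e-07). Cd83 (-0.41), Cd200 (-0.45) and Ccl17 (-0.43) were lower as well, while Il15ra, which presents interleukin-15, was higher (0.43). The costimulatory genes Cd40 (0.34, adjusted p = 0.0809) and Cd86 (0.13, adjusted p = 0.191) were not called by limma over the 36 libraries. For Cd40 the groups did not overlap. It was called by edgeR (adjusted p = 5.92e-05), DESeq2 (adjusted p = 5.35e-05) and limma on the 6 libraries alone (adjusted p = 0.000162), while none of these called Cd86. In mock cells the list was more one-sided, with 0 higher and 21 lower (median -0.51). Relative to mock, 14 of the 28 had a more positive and 0 a more negative difference with PAMP RNA, and 12 without WT mock replicate 1. For Ccr7 that excess was 0.41 (adjusted p = 0.000238) and for Cd86 0.63 (adjusted p = 1.70e-05).

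Of 21 genes of dendritic cell identity, 1 was higher and 8 lower in KO cells, and in mock cells 1 and 7. Among the lower ones were the transcription factor genes Zbtb46 (-0.43), Batf3 (-0.33) and Irf4 (-0.29). Macrophage scavenger and phagocytic receptors had 10 of 26 higher and 3 lower. Mertk, a receptor for dying cells, had 1119, 1174 and 1127 in KO cells, against 711, 819 and 791 in WT cells (0.56, adjusted p = 1.02e-08). The sialoadhesin gene Siglec1 (0.50; not called after quantile normalization) and the Fc receptor gene Fcgr1 (0.44) were higher, and the scavenger receptor gene Cd36 fell by 0.47. Of 17 genes of alternative activation, 3 were higher and 9 lower. Of 30 lysosomal hydrolases, 16 were higher and 1 lower (8 higher after quantile normalization). The cathepsin gene Ctsc had 29909, 27097 and 27314 in KO cells, against 18255, 17976 and 18313 in WT cells (0.63, SE 0.04, adjusted p = 6.05e-15), and Ctsk was higher by 0.72.

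Marker lists of the cell types that the culture could hold were summed in each library. They are not separate from the lists above. The dendritic cell markers include H2-Ab1, H2-Aa, Cd74, Zbtb46 and Irf4, and the macrophage markers include Mertk and Fcgr1, all described already. The summed normalized count of 8 dendritic cell markers was 66024 to 68045 in KO and 77002 to 82444 in WT cells with PAMP RNA, with 5 of 7 tested markers lower, and that of 8 macrophage markers was 27812 to 28483 in KO and 23952 to 25261 in WT cells, with 3 of 8 higher. Neutrophil markers summed to 202 to 226 in KO and 142 to 161 in WT cells, and S100a8 (0.40) and S100a9 (0.67) were the 2 higher of 4 tested, calls lost with equal totals and without KO or WT replicate 1. T cell markers summed to 103 to 118 in KO and 153 to 193 in WT cells, with Cd3g and Cd8b1 at 0 and Tcf7 lower (-0.90). The plasmacytoid dendritic cell list summed to 4829 to 5501 in KO and 4301 to 4931 in WT cells, ranges that overlap, with its defining genes Siglech and Ly6d at 0. In mock cells this list summed to 936 to 1004.5 in KO and 1004 to 1127 in WT cells, so its sum was higher with PAMP RNA in both genotypes. B cell markers summed to 255 to 269 in KO and 258 to 280 in WT cells with Pax5 at 0, and mast cell and basophil markers to 46.6 to 60.1 and 42.7 to 59.5 with 5 of 8 genes at 0. NK cell, erythroid and stromal lists summed to 26 or less in every library of both groups. In these bulk libraries, fewer cells of a type and less RNA per cell cannot be told apart, and the part of these markers in the results was not tested.

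Genes of cell death were mostly higher, 15 of 28 with 1 lower (7 higher after quantile normalization). The death ligand gene Tnfsf10 (TRAIL) had 4345, 3937 and 4084 in KO cells, against 2356, 2141 and 2486 in WT cells. KO libraries were all higher, by 0.83 (SE 0.14, adjusted p = 8.68e-06). The necroptosis effector gene Mlkl rose by 0.42, while Pmaip1 (Noxa) was the member that fell (-0.45).

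**Figure D3:**
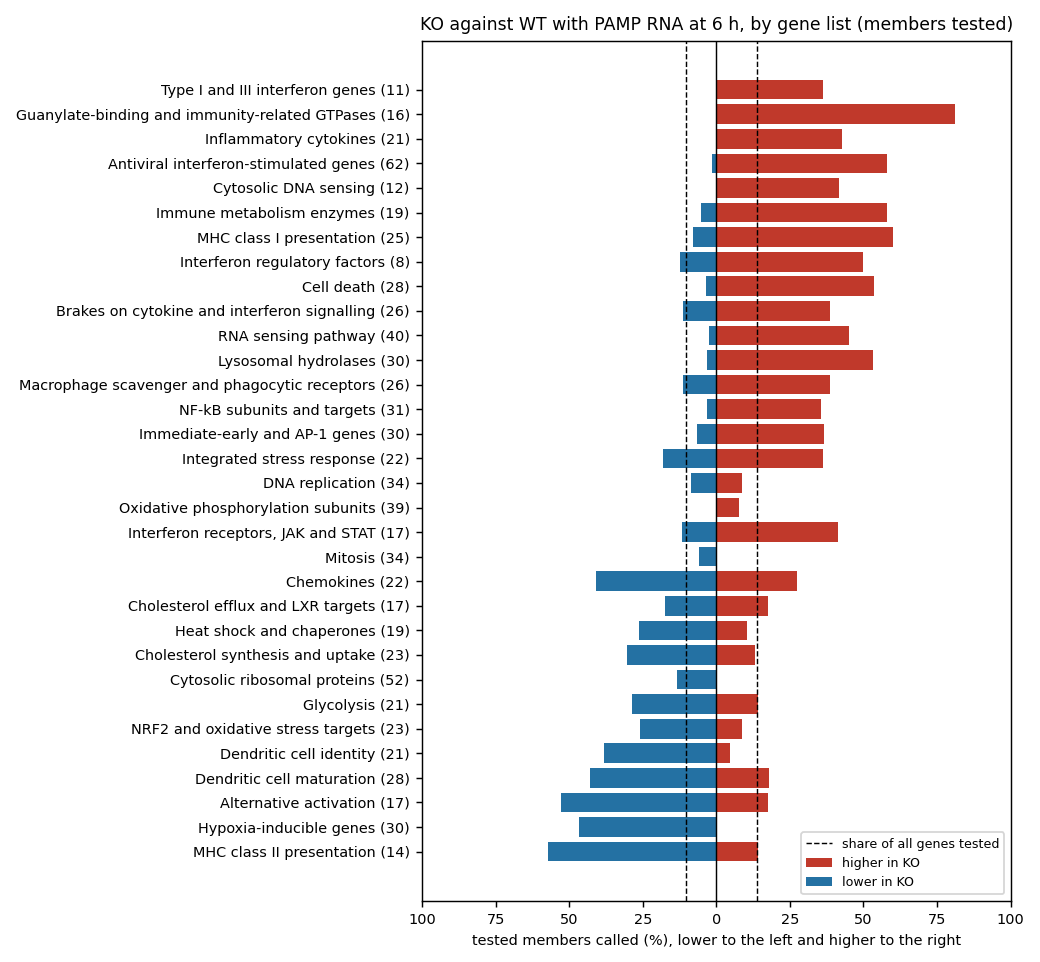
Share of the tested members of each gene list (rows, number tested in brackets) that were called higher in KO (right, red) or lower in KO (left, blue) with PAMP RNA at 6 h, in percent; dashed lines mark the shares over all genes tested, 13.7% higher and 10.3% lower. GTPases of the interferon response reach furthest to the right, and hypoxia-inducible genes have 0 members on that side.

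Hypoxia-inducible genes, which cells switch on when the prolyl hydroxylases stop marking HIF for decay, were lower in KO cells with PAMP RNA. Of 30 tested, 0 were higher and 14 lower (median -0.27), and 13 were lower after quantile normalization, 18 with equal totals and 13 by edgeR. Egln3, itself a HIF-induced prolyl hydroxylase, had 39.9, 37.2 and 58.2 in KO cells, against 151, 134 and 113 in WT cells. The highest KO library was below the lowest WT library, and the difference was -1.55 (SE 0.19, adjusted p = 1.74e-08). Zfp395, a hypoxia-induced zinc finger gene, had 17.3, 21.5 and 16.6 in KO cells, against 69.6, 72.3 and 44.0 in WT cells (-1.67, SE 0.17, adjusted p = 1.48e-10). The nuclear receptor gene Rora had 82.5, 58.7 and 76.0 in KO cells, against 132, 130.4 and 124 in WT cells (-0.84, adjusted p = 7.31e-07). None of these groups overlapped. Hilpda, a lipid droplet gene, was lower by -0.76, the oxidase gene Ero1l by -0.69 and Ndrg1 by -0.48. Ddit4, an inhibitor of mTORC1, was lower by -0.74 in limma (adjusted p = 0.0137) and was not called by edgeR (adjusted p = 0.121). Glycolysis, which shares targets with this list, had 3 of 21 genes higher and 6 lower.

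The mean log2 level of the 30 genes was 8.18, 8.09 and 8.08 in KO and 8.52, 8.55 and 8.35 in WT cells with PAMP RNA, and in mock cells 9.59, 9.62 and 9.59 in KO and 8.91, 9.65 and 9.65 in WT cells. Apart from the one WT mock library, mock cells of the genotypes were level. With it, 5 genes were higher and 1 lower in KO mock cells (median 0.16), and without it 0 and 2 (median 0.01). Relative to mock, 13 genes had a more negative difference with PAMP RNA (median -0.43), and 9 without that library (median -0.26). For Egln3 the value was -2.07 with and -1.65 without it, for Zfp395 -2.16 and -1.86, for Ddit4 -1.37 and -0.70, and for Ero1l -0.77 and -0.49. Ndrg1 (-0.55 and -0.30) and Ankrd37, an ankyrin repeat gene (-1.28 and -0.74), lost the call without it. At 3 h, 2 of the 30 genes were higher and 5 lower (median -0.12).

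Promoters of 3 hypoxia genes are shown in the same way, with the core of the hypoxia response element, ACGTG, in capitals on either strand. Egln3 lies at chr12:54203875-54204124 (minus strand, match from -229 to -225), Rora at chr9:68653536-68653785 (plus strand, match from -187 to -183) and Hilpda at chr6:29272238-29272487 (plus strand, no match in the window).
Egln3: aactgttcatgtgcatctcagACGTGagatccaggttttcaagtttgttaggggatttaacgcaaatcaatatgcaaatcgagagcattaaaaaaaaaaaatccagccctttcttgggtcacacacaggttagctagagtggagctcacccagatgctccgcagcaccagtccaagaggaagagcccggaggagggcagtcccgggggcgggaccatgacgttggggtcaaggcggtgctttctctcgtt
Rora: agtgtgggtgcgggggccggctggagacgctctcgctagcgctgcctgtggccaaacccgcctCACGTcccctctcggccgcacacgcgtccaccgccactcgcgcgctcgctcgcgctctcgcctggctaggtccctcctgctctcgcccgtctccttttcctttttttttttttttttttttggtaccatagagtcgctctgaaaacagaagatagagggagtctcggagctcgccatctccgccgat
Hilpda: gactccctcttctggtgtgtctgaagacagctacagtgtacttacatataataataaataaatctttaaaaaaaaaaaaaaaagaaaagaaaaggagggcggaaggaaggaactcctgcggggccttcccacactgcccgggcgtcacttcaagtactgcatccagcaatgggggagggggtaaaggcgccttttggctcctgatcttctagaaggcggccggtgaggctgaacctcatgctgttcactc
RefSeq entries were found for 9 of the 14 called genes, and 5 of the 9 windows (55.6%) hold ACGTG, against 5444 of 32851 windows of that length (16.6%). Sequence outside the window was not searched, and here too members not called were not counted, so the share does not bear on KO against WT.

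**Figure D4:**
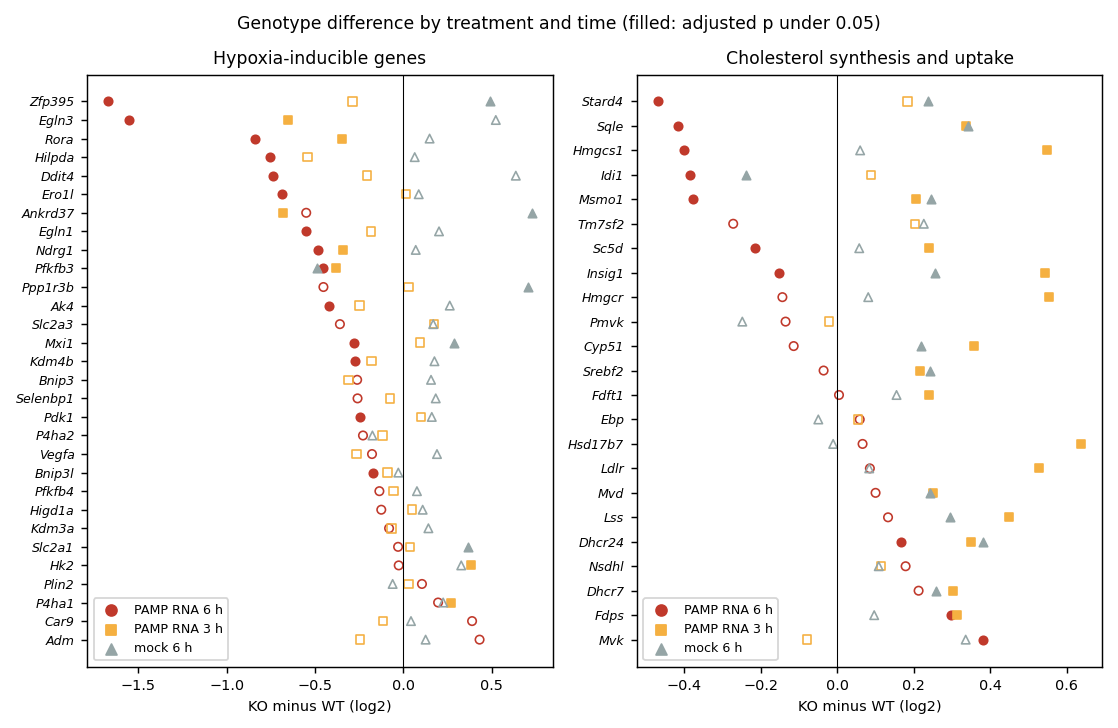
KO minus WT difference (log2, horizontal axes) of the hypoxia-inducible genes (left) and the cholesterol genes (right) for PAMP RNA cells at 6 h, PAMP RNA cells at 3 h and mock cells at 6 h; filled symbols have an adjusted p under 0.05. Zfp395 and Egln3 are furthest below 0 with PAMP RNA at 6 h, and Hmgcs1 and Sqle are below 0 at 6 h and above 0 at 3 h.

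Of the lists examined, cholesterol synthesis had the largest median shift of the genotype difference between the time points. At 6 h, 3 of 23 genes were higher and 7 lower (median -0.04), and 1 and 9 after quantile normalization. At 3 h, 16 were higher and 0 lower (median 0.25). Over all genes 1505 (12.7%) were higher and 1115 (9.41%) lower at 3 h, 22.1% in all. Tested directly, 11 of the 23 had a more negative difference at 6 h than at 3 h and 0 a more positive one (median -0.44). Over all genes, 83 (0.700%) had a more positive and 94 (0.793%) a more negative difference at 6 h, 1.49% in all. Hmgcs1, the HMG-CoA synthase gene, had 881, 903 and 889 in KO cells, against 1101, 1263 and 1172 in WT cells at 6 h, and 2093, 2265 and 2665 in KO cells, against 1605, 1567 and 1609 in WT cells at 3 h. KO cells were lower at 6 h (-0.40, adjusted p = 1.92e-07) and higher at 3 h (0.55, adjusted p = 9.04e-11), a shift of -0.95 (SE 0.08, adjusted p = 4.68e-12). Squalene epoxidase (Sqle) shifted by -0.75, the isomerase gene Idi1 by -0.47, the sterol transfer gene Stard4 by -0.65 and the desaturase gene Scd2 by -0.72. In mock cells at 6 h, 10 of the 23 were higher and 1 lower in KO, and 6 and 1 without WT mock replicate 1.

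Of the called genes, 925 were higher at both times, 56.9% of the 6 h and 61.5% of the 3 h list, and 511 were lower at both, 41.9% and 45.8%. Genes outside the sterol list shifted too. The triggering receptor gene Trem1 had 607, 559.8 and 543 in KO cells, against 509, 452 and 492 in WT cells at 6 h, and 201, 273 and 218 in KO cells, against 351, 301 and 309 in WT cells at 3 h. It was lower in KO at 3 h (-0.48). At 6 h limma did not call the difference of 0.23 over the 36 libraries (adjusted p = 0.0518) but did on the 6 alone (adjusted p = 0.0283). The shift was 0.71 (limma, adjusted p = 0.000758). The signal regulatory gene Sirpb1b shifted by 0.86, the organic anion transporter gene Slco3a1 by 0.59 and Inhba by 0.72. The shifts of Sirpb1b and Inhba lost the call without any of several single libraries, and those of Slco3a1 and Inhba after quantile normalization. More negative at 6 h were the docking protein gene Gab1 (-0.86; not called by edgeR) and the ribosome assembly gene Mdn1 (-0.75).

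Several of the largest differences were present in mock cells as well, and whether they follow from the loss of LGP2 was not tested. At the distal end of chromosome X, Erdr1 had 0 reads in the 3 KO libraries, against 254, 189 and 209.7 in WT cells. With 3 reads over the group as the floor, it was at least 165-fold lower. This floor and its bound cover counting error only, since the libraries carry no molecular identifiers. Mid1, a ubiquitin ligase gene (X, 169685199 to 170005736, plus strand, GRCm38), had 18.6, 24.3 and 27.3 in KO cells, against 814, 875 and 857 in WT cells (-5.14, SE 0.22, adjusted p = 5.52e-23). G530011O06Rik lies inside Mid1 on the other strand (169975043 to 169978917) and had 30.6, 25.8 and 24.9 in KO cells, against 1215, 1079 and 1182 in WT cells. Without strand, reads of the 2 genes cannot be told apart. In mock cells Erdr1 had a mean of 0 in KO and 178 in WT cells, Mid1 differed by -2.76 and G530011O06Rik by -3.39. The differences with PAMP RNA exceeded these, by -2.37 for Mid1 (adjusted p = 5.52e-07) and by -1.98 for G530011O06Rik (adjusted p = 0.0108; call lost without KO mock replicate 1).

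Wdfy1, an endosomal adaptor gene (chromosome 1, 79702262 to 79776143), had 916, 955 and 944 in KO cells, against 316, 327 and 281 in WT cells. It showed the largest rise among the genes named by size (1.61, SE 0.08, adjusted p = 2.14e-20), and mock cells differed by 1.68. Rnpep, an aminopeptidase gene on the same chromosome (chromosome 1, 135262712 to 135284084), had 3089.8, 3177 and 2908 in KO cells, against 1249, 1286 and 1287 in WT cells (1.26; mock 0.94). The semaphorin receptor gene Plxnb2 was higher by 1.21 with PAMP RNA and 1.07 in mock cells. Nnt, the mitochondrial transhydrogenase gene that is truncated in C57BL/6J mice, was chosen after its values were seen. It had 282, 292 and 252 in KO cells, against 151, 142 and 149 in WT cells (0.89; mock 1.01). Lower in both conditions were the pyrin-domain gene Pydc3 (-1.34; mock -2.54), the scaffold gene Mpp7 (-1.33; mock -0.92), Dpysl5 (-1.27; mock -1.02), the immunoglobulin-like receptor gene Pira2 (-1.06; mock -0.76), and the desmosome gene Pkp2 (-0.99; mock -0.61). The lectin-like receptor gene Klrb1b had 54.5, 55.8 and 54.6 in KO cells, against 119, 110.3 and 105 in WT cells, and was lower in mock cells also (-0.67). Among genes known only by a model number, Gm14548 was higher (1.08; mock 1.73) and Gm13546 lower (-1.01; mock -0.89), while Gm10825 was higher with PAMP RNA (1.19) and not called in mock cells (0.26, adjusted p = 0.665).

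**Figure D5:**
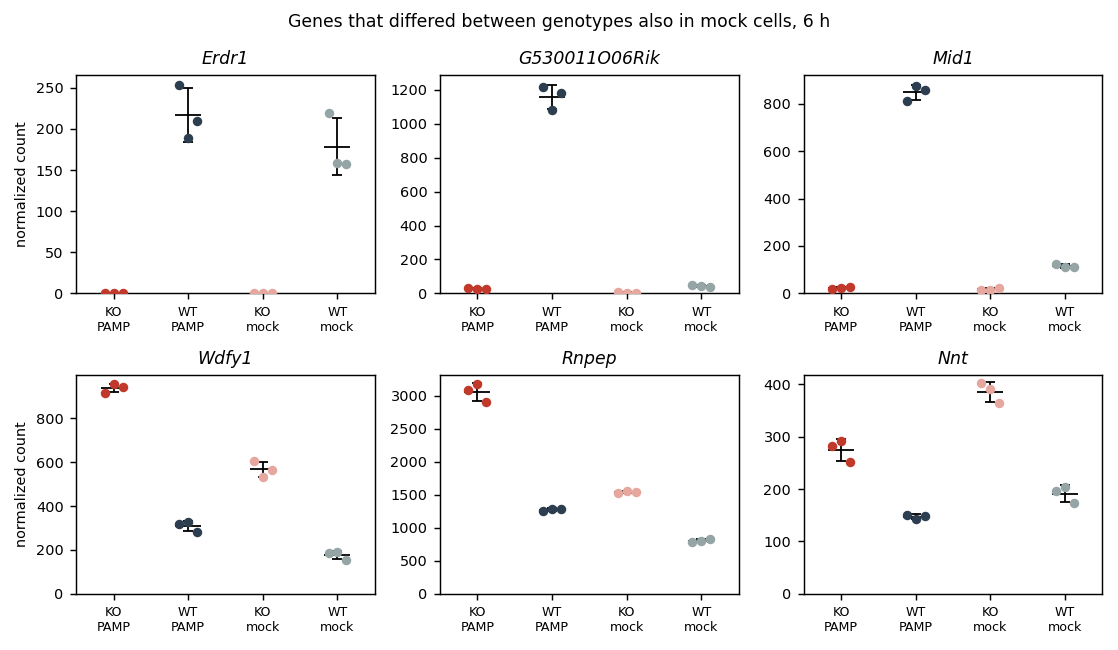
Normalized counts at 6 h (vertical axes, from 0) of 6 genes that differed between genotypes also in mock cells, in each library, with the groups in the order KO and WT with PAMP RNA, then KO and WT mock; points are libraries, and black lines are the mean and SD of 3. Erdr1 is at 0 in all 6 KO libraries shown, and Wdfy1, Rnpep and Nnt are higher in KO in both conditions.

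Other genes of this size were not called in mock cells. The chloride channel gene Clic5 had 331, 279 and 330.1 in KO cells, against 121, 86.6 and 109 in WT cells (1.57, adjusted p = 0.0199), and its mock means were 0.576 in KO and 1.46 in WT cells. Its call was lost without KO replicate 1 or 3 or WT replicate 2. The transcription factor gene Lhx2 (1.16) and Gm4841 (1.14) also had mock means near 0. Both lost the call with equal totals, Lhx2 also without KO replicate 1 or 3 or WT replicate 1 or 2, and Gm4841 without any 1 of the 6 libraries. Fam26f was higher by 1.12, with mock means of 25.3 in KO and 18.5 in WT cells. Tested against mock, the differences of Lhx2 (1.00, adjusted p = 0.29), Gm4841 (1.47, adjusted p = 0.117) and Fam26f (0.68, adjusted p = 0.0621) were not called. Tnfrsf18, which encodes the receptor GITR, fell by 1.01 (adjusted p = 2.79e-05), with 31.9, 25.8 and 43.9 in KO cells, against 62.5, 79.4 and 62.1 in WT cells, and its mock difference was -0.24 (adjusted p = 0.459). Arhgef18, an exchange factor gene, was lower by -0.95, and Arrdc3, an arrestin-domain gene, by -0.78, and neither was called in mock cells.

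For 4 lists of general cell functions the called share was below the 24.0% of all genes. Of 39 oxidative phosphorylation subunits, 3 were higher and 0 lower, of 52 cytosolic ribosomal proteins 0 and 7, of 34 mitosis genes 0 and 2 and of 34 DNA replication genes 3 and 3. Stress and signalling lists had a larger called share. Heat shock genes gave 2 of 19 higher and 5 lower, NRF2 targets 2 of 23 and 6, and genes of the integrated stress response 8 of 22 and 4. NF-kB subunits and targets gave 11 of 31 higher and 1 lower, and 2 and 4 after quantile normalization. Interferon receptors, JAK and STAT genes gave 7 of 17 higher and 2 lower, with a median that changed sign after either rescaling. The interferon signal transducer gene Stat2 differed by 0.22 (adjusted p = 0.038), a call lost after either rescaling and without any of 5 of the 6 libraries, WT replicate 1, 2 or 3 and KO replicate 2 or 3. Interferon regulatory factors gave 4 of 8 higher and 1 lower, with Irf1 at 0.33 (adjusted p = 5.29e-05; not called after quantile normalization), and cholesterol efflux genes 3 of 17 and 3. Immediate-early genes gave 11 of 30 higher and 2 lower, with 7 higher without KO PAMP RNA replicate 1, 5 without KO replicate 3, and 6 higher and 4 lower without WT replicate 2.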

How the data were processed

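RNA-seq of mouse dendritic cells was used as the authors' table of normalized counts per gene (a signal scaled by size factors, deposited for 36 libraries). Per the submitters' processing notes the tools were TopHat, Cufflinks and DESeq2 with GRCm38 (mm10); the sources used here do not give their versions, settings or annotation. Per the labels' protocols, libraries were made with SMARTer and Nextera XT kits and read as single reads. Every value was a whole multiple of 1 read within 0.01 (100%), which gave back the reads per library. PCR duplicates cannot be told from separate molecules.

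The table holds 24127 genes, 4887 of them with no read. The main test was limma 3.58.1 on log2(normalized count + 1) for genes with a mean of at least 10, over all 36 libraries with 1 term per group (24 residual degrees of freedom) and Benjamini-Hochberg adjustment. The alternatives were pseudocounts of 0.5 and 5, other filters, quantile normalization, scaling to one total, TMM, the 6 libraries alone, a replicate block, leaving out each library, and edgeR 4.0.16 and DESeq2 1.42.0 on the recovered reads. Replicates of a group correlated at 0.9909 or more. In a test on simulated data over 11853 genes, 50 genes each were changed 1.25-fold, 1.5-fold, 2-fold and 4-fold. For this comparison 48%, 76%, 96% and 96% of them were recovered, and 52 unchanged genes were also called. The changed genes were drawn from those above a minimum mean read count, so the recovery does not cover weakly expressed genes. Far more genes, 2848, were called in the data than were changed here. The share of unchanged genes among the simulated calls was above what the adjusted p threshold is meant to allow. The called lists may therefore hold more false calls than that threshold implies.

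The members and gene lists were chosen with earlier results of these data known. Named genes are Dhx58, a panel, up to 15 rises and 15 falls of the largest size (called, mean at least 50, groups not overlapping), up to 6 called genes of a list, and the largest called shifts against mock and against 3 h. Some genes are not reported here. Gene positions come from GENCODE M21 or RefSeq (GRCm38).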

Additional observations from a re-analysis of the deposited data

Results flagged for a closer look

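The genotype difference (KO minus WT, log2) with PAMP RNA was tested against the one in mock cells at 6 h for every gene. Of all genes tested, 1243 (10.5%) passed. Among the genes named here 78 did, but some were named because of their call in this test, so that count is no result about the named genes. The values in this paragraph and the next are the difference with PAMP RNA minus the difference in mock cells. More positive with PAMP RNA were genes of the interferon response. These were Gbp11 (1.70), Serpina3g (1.35), Cxcl10 (1.17), Gbp4 (1.15), Gbp5 (0.96), Mx1 (0.94), Usp18 (0.94), Cmpk2 (0.92), Rsad2 (0.90), Oasl1 (0.90), Ccl5 (0.89), Irf7 (0.86), Tlr3 (0.77), Tnfsf10 (0.77), Ifit1 (0.75), Ifih1 (0.67), Igtp (0.63), Gbp7 (0.62), Stat2 (0.44), Irf1 (0.42) and Tbk1 (0.41). Inducible enzymes, cytokines and regulators followed, with Ptgs2 (1.47), Nos2 (1.44), Ch25h (1.40), Socs1 (0.83), Irg1 (0.79), Inhba (0.67), Ccl3 (0.65), Tnf (0.59) and Socs3 (0.41). Antigen presentation and maturation genes were Il15ra (0.93), Cd40 (0.77), H2-T24 (0.63), Cd86 (0.63), Nlrc5 (0.58), Cd200 (0.53), Tap1 (0.45), Ccr7 (0.41), Cd83 (0.26) and Ccl22 (0.25). The remaining positive ones were Clic5 (2.20), Olfr56 (1.33), Ctla2b (1.29), Klrk1 (1.23), 2310009A05Rik (0.80), Slco3a1 (0.77), AB124611 (0.56), Sirpb1b (0.69), Mlkl (0.64), Mertk (0.59), Fcgr1 (0.59), Ctsc (0.53), Trem1 (0.43) and Rnpep (0.32).

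More negative with PAMP RNA were Dhx58 (-2.93) and its neighbour Kat2a (-1.24), and on the X chromosome Mid1 (-2.37) and G530011O06Rik (-1.98). Hypoxia-inducible genes were Zfp395 (-2.16), Egln3 (-2.07), Ddit4 (-1.37), Ankrd37 (-1.28), Rora (-0.99), Ero1l (-0.77) and Ndrg1 (-0.55). Sterol and lipid genes were Scd2 (-0.88), Sqle (-0.76), Stard4 (-0.71) and Hmgcs1 (-0.46). The others were Arhgef18 (-1.27), Arrdc3 (-1.15), Tnfrsf18 (-0.77), Gab1 (-0.76), Gm14548 (-0.66), Rfxap (-0.64), Ppbp (-0.59), Mdn1 (-0.57) and Pira2 (-0.29). Without WT mock replicate 1, 17 of the 78 lost the call: Clic5, Ch25h, Gbp11, Tnfrsf18, Irf7, Ifit1, Oasl1, Socs3, Ccl22, Cd200, Tnfsf10, Ndrg1, Ankrd37, Sirpb1b, Stat2, Olfr56 and Rfxap. Under at least 1 of the alternatives 31 of the 78 did not keep their call, and Cd83, Clic5, Gbp11, Socs3 and Tnfrsf18 lost it under most of them.

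Of all genes tested, 177 (1.49%) passed the test of 6 h against 3 h, and some genes were named because of their call in it. The genotype difference with PAMP RNA differed between 6 h and 3 h for 23 genes named here. It was more positive at 6 h for 2310009A05Rik (1.09), Sirpb1b (0.86), Foxn3 (0.79), Inhba (0.72), Trem1 (0.71), AU022793 (0.69), AB124611 (0.59), Slco3a1 (0.59), Ccl5 (0.41) and Cd86 (0.36). It was more negative at 6 h for Zfp395 (-1.38), Mid1 (-1.37), Hmgcs1 (-0.95), Gab1 (-0.86), Hs3st3b1 (-0.80), Rfxap (-0.78), Arhgef18 (-0.76), Sqle (-0.75), Mdn1 (-0.75), Scd2 (-0.72), Ero1l (-0.70), Stard4 (-0.65) and Idi1 (-0.47). Of these 23 genes, 12 did not keep the call under every alternative, and Arhgef18, Cd86 and Ero1l lost it under most of them.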

How the results depend on the processing

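The cause of the changes below was not tested. For KO minus WT with PAMP RNA at 6 h, quantile normalization left 855 higher genes, and scaling to one total 749 higher and 2463 lower. For the difference against mock cells these gave 381 and 381 more positive genes, and one total gave 1249 more negative. At 3 h one total gave 898 higher and 1833 lower, and for 6 h against 3 h 193 more negative, while quantile normalization gave 52 more positive. Counts of lower genes with PAMP RNA were 751 with the 6 libraries alone and 799 with DESeq2, which called 287 more negative genes against mock. For 6 h against 3 h edgeR called 48 and 46. Quantile normalization reversed 2 values against mock, Rnpep (-0.0022) and Ccl22 (-0.0607). Leaving out 1 library gave 1312 to 1508 higher and 996 to 1067 lower genes with PAMP RNA, 341 to 494 and 514 to 614 in mock cells, 614 to 761 and 306 to 454 against mock, 1162 to 1414 and 820 to 998 at 3 h, and 40 to 100 and 54 to 126 for 6 h against 3 h. The lowest mock count, 341, came without KO mock replicate 2, and without KO mock replicate 3 it was 376. For 6 h against 3 h, the more positive genes were 47 without KO PAMP RNA 6 h replicate 1, 49 without WT PAMP RNA 6 h replicate 2, and 42, 40 and 51 without WT PAMP RNA 3 h replicates 1, 2 and 3, and the more negative ones 54 without replicate 2 of that WT group. Dhx58 ranged over -1.75 to -1.59. A replicate block gave 1628 higher and 1228 lower genes, and 4 named calls were lost under it. Same-numbered libraries with PAMP RNA at 6 h correlated at 0.051, 0.092 and -0.034, and 12 of 36 libraries were closest to their own number, so the numbers were not taken as pairs. Depth limits genes near the filter, and only counting error is covered by the floor for Erdr1.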
